A study of Homo sapiens with 4 samples.

Results

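HA-tagged G9a was expressed in CL1-0, a human lung adenocarcinoma cell line, and its RNA was set beside that of CL1-0 carrying the control vector. The comparison took the 2 arrays of CL1-0 among the 4 arrays of the series, 1 array a group, chosen by their labels. CL1-5, a more invasive subline of CL1-0, supplied the other arrays: 1 of cells with a control shRNA and 1 of cells with an shRNA against G9a (labelled shRNA2). All 4 populations were stably transduced and selected with puromycin, so vector and HA-G9a cells share the selection. The labels do not say whether a population was a pool or a clone, and the promoter that drives HA-G9a is not given in the sources used here. Each group is 1 population on 1 array, so no difference here has a replicate check and none was tested.

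G9a, encoded by EHMT2, mono- and dimethylates lysine 9 of histone H3 in euchromatin, mostly as a heterodimer with its relative GLP, encoded by EHMT1. The mark is generally associated with gene silencing, and G9a can also act as a coactivator apart from its methyltransferase activity. In lung cancer the enzyme has been studied for its part in invasion and in the silencing of cell adhesion genes.

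A gene's value was the signal of 1 probe set, and 19740 genes had one. Ratios are log2 ratios of HA-G9a over vector, relative to the median ratio of the bright probe sets, so that 1 is 2-fold higher and -1 is 2-fold lower. Signals were first raised to at least 3.35, called the floor and equal to the 25th percentile of the deposited values, so where an array was at the floor the true difference may be larger than the ratio. A gene counted as bright when its brighter CL1-0 array was at or above 84.2, the 75th percentile of all values, which 7743 genes met. A wider set, with a brighter array at or above the median of 12.5, held 12791 genes. Probe sets of 1 gene gave a technical yardstick: their ratios differed with a pooled SD of 0.25 among bright probe sets (3012 genes) and 0.51 in the wider set (6445 genes). This yardstick holds no spread between cultures.

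The signal of EHMT2, the enzyme's gene, was higher with HA-G9a. RNA from the HA-G9a construct and RNA from the cell's own gene were not told apart. EHMT2 read 420 in vector cells and 862 in HA-G9a cells, a relative log2 ratio of 1.12. A dimmer probe set of EHMT2 read 38.0 and 44.2, a ratio of 0.30, so the probe sets did not give one size of difference. Over the alternative scalings and probe set rules the ratio of EHMT2 ran from 0.71 to 1.36, on both sides of 2-fold. EHMT1, the gene of the partner GLP, read 309 in vector cells and 231 in HA-G9a cells, a ratio of -0.33. CDYL2, a chromodomain protein of the family that binds methylated lysine 9 of histone H3, read 15.3 and 43.3, a ratio of 1.59, at a dim level. Of the 15 genes of the G9a complex and other H3K9 methyltransferases on the array, 12 were bright, and EHMT2 alone among them passed 2-fold. That was 1 of 12 higher and 0 lower, beside 1.58% and 0.827% of all bright genes.

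Most bright genes read nearly alike on both arrays. The middle 90% of relative ratios ran from -0.55 to 0.55, and 6758 of the 7743 genes (87.3%) lay within 0.5 of 0. At least 2-fold higher with HA-G9a were 122 genes, 1.58% of the bright genes, and at least 2-fold lower were 64, or 0.827%. Past 4-fold were 27 higher and 6 lower. In the wider set 704 genes (5.5%) were higher and 477 (3.73%) lower, and that set holds the dim genes whose MAS5 signals are noisy. A gene that reached the bright level on the HA-G9a array alone had to read higher there: 73 of the 122 did so, and 49 were bright on both arrays. Of the 64 lower genes, 46 were bright with the vector alone and 18 on both arrays. Where a higher gene had several probe sets past the median, all of them pointed the same way in 54 of 66 cases, and for lower genes in 24 of 34.

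**Figure D1:**
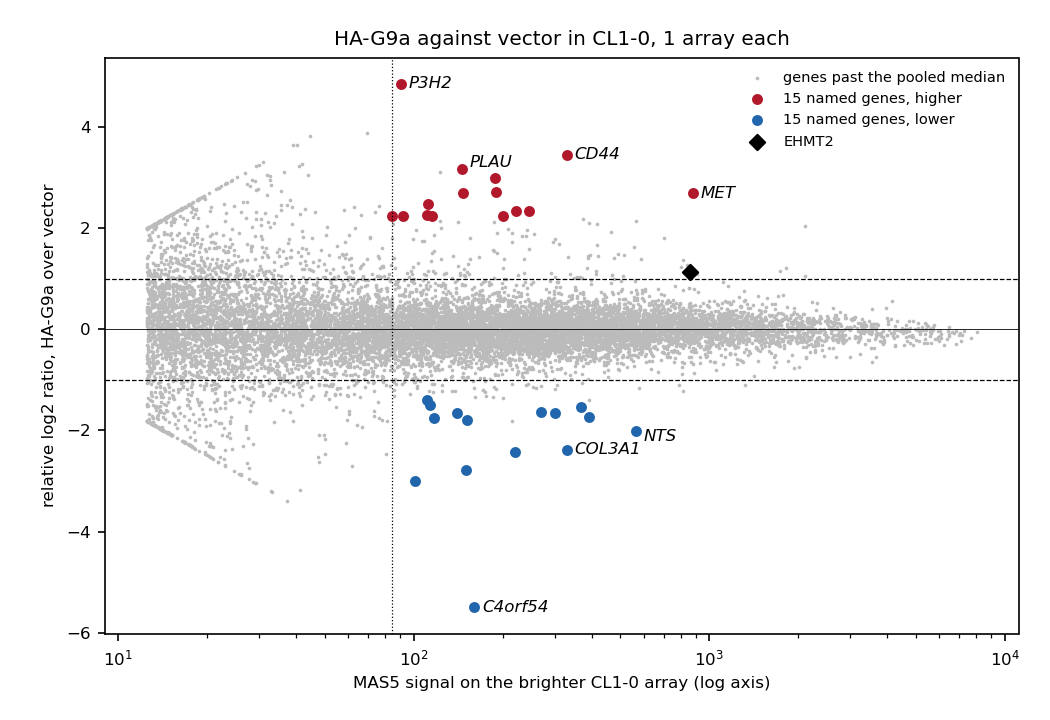
Relative log2 ratio of HA-G9a over vector against the MAS5 signal on the brighter CL1-0 array (log axis), 1 point a gene past the pooled median. Dashed lines mark 2-fold, the dotted line the bright level of 84.2. The cloud narrows with signal, and the named genes, in colour, lie outside it from CD44 at 3.44 and MET at 2.69 down to COL3A1 at -2.38 and NTS at -2.01.

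CD44, the receptor for hyaluronan, read 32.3 in vector cells and 331 in HA-G9a cells, a relative log2 ratio of 3.44. Each of the 7 probe sets of CD44 past the median read higher, with ratios from 2.80 to 3.64. Hyaluronan synthase HAS3 read 32.8 and 124, a ratio of 2.01, and the hyaluronan-binding proteoglycan VCAN read 7.99 and 24.3 (1.69). The motility receptor HMMR, which is also a spindle protein, went the other way at 1850 and 1133 (-0.62). Of the 12 CD44 and hyaluronan genes on the array 8 were past the median, and 3 of the 8 were at least 2-fold higher and 0 lower, beside 5.5% and 3.73% of all genes in that set. The HA-G9a array alone brought 1 of the 3 past the median. The list median was 0.12 beside 0.00 over all genes past the median.

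Basement membrane laminins split by chain. LAMB3, the beta chain of laminin-332 in epithelial basement membranes, read 25.1 in vector cells and 188 in HA-G9a cells, a ratio of 2.99. LAMB1, a beta chain of widely expressed laminins, read 365 and 805 (1.23). The alpha chain genes LAMA1 and LAMA2 read 20.4 and 18.6 with HA-G9a against values below the floor with the vector, so their ratios of 2.69 and 2.56 are bounds. Lower by less than 2-fold were LAMA5 at 147 and 89.4 (-0.63), LAMB2 at 169 and 107 (-0.58) and LAMC1, the shared gamma chain, at 507 and 327 (-0.55). Of 10 laminin chain genes on the array 8 were past the median, and 4 of the 8 were higher past 2-fold and 0 lower, beside 5.5% and 3.73% of all genes there. LAMA1 and LAMA2 had reached the median on the HA-G9a array alone. The 6 bright chains had a median of -0.39.

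Integrins past 2-fold were alpha subunits. ITGA2, a collagen receptor subunit, read 5.66 and 44.0, a ratio of 3.04. ITGA3, a laminin receptor subunit, read 21.6 and 57.2 (1.49), and ITGA5, the fibronectin receptor subunit, 76.4 and 149 (1.05). Its ligand gene FN1 read 47.0 and 97.8, a ratio of 1.15. Of 13 alpha subunits past the median 5 were at least 2-fold higher, and of 3 beta subunits 0, lying between 0.02 and 0.19. The difference between the subunit types was not tested. The share of integrin genes past the median that were higher, 5 of 16, stands beside 5.5% of all genes in that set, and 3 of the 5 had reached the median on the HA-G9a array alone.

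PLAU, which encodes the urokinase-type plasminogen activator, read 17.2 in vector cells and 145.5 in HA-G9a cells, a ratio of 3.16, and its other probe set gave 2.75. The protease inhibitor genes TIMP1 and SERPINE2 read higher too. TIMP1, an inhibitor of matrix metalloproteinases, read 214 and 703 (1.80), and SERPINE2, an inhibitor of urokinase and thrombin, 42.8 and 115 (1.51). Of 10 serpin genes past the median 4 were higher and 3 lower, beside 5.5% and 3.73% of all genes there. The HA-G9a array alone brought 3 of the 4 past the median, and the vector array alone all 3 lower genes. Metalloproteinases read below the bright level on both arrays. MMP1, an interstitial collagenase, read 3.98 and 27.3 (2.86), MMP2, a gelatinase, 6.90 and 38.1 (2.55), while MMP9 read 23.9 and 24.3 (0.11). MMP28, or epilysin, read 23.0 in vector cells and 4.14 in HA-G9a cells (-2.39), and MMP15, membrane-bound, read 26.1 with the vector and below the floor with HA-G9a. Of 30 genes of the urokinase system and matrix proteases 18 were past the median, and 8 of the 18 were higher and 2 lower, beside 5.5% and 3.73% of all genes there. The median was reached on the HA-G9a array alone by 5 of the 8, and on the vector array alone by both lower genes.

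Matrix genes moved in both directions. P3H2, a collagen prolyl 3-hydroxylase, read 2.89 in vector cells and 90.8 in HA-G9a cells, and its ratio of 4.84 is a bound because the vector signal was under the floor. LOXL2, which cross-links collagen, read 95.4 and 297 (1.72). TGFBI, a secreted matrix protein induced by TGF-beta, read 51.7 and 246 (2.34). THBS1, thrombospondin 1, read 97.4 and 391 (2.09). On the other side COL3A1, the chain of type III fibrillar collagen, read 330 in vector cells and 59.7 in HA-G9a cells (-2.38), and its 3 probe sets agreed within -2.38 to -2.10. POSTN, encoding periostin, read 151 and 41.0 (-1.79), and MFAP2, a microfibril protein, 138 and 55.4 (-1.23). Of 20 matricellular genes past the median 5 were higher and 3 lower, and of 21 collagen chains 4 were higher and 2 lower, beside 5.5% and 3.73% of all genes there. Of the matricellular genes, the HA-G9a array alone brought 2 of the 5 past the median, and the vector array alone 1 of the 3. The 4 higher collagen chains had each reached the median on the HA-G9a array alone. Of the 2 lower chains 1 had reached it on the vector array alone.

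**Figure D2:**
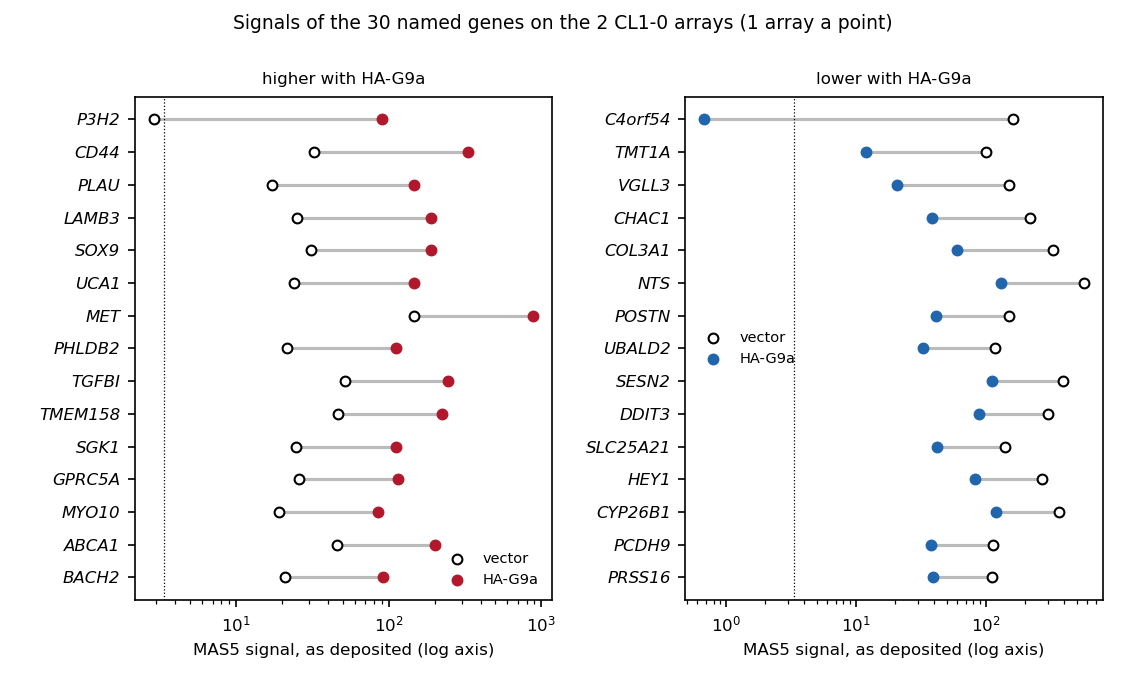
MAS5 signals as deposited (log axis) of the 15 highest and 15 lowest bright genes, with the vector (open) and with HA-G9a (filled), 1 array a point. The dotted line is the floor of 3.35. Apart from P3H2 with the vector and C4orf54 with HA-G9a, every signal lies above the floor.

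The paired keratins of simple epithelia read higher. KRT18 read 545 in vector cells and 2113 in HA-G9a cells, a ratio of 2.04, and its filament partner KRT8 read 67.2 and 186 (1.56). KRT80 read 12.6 and 63.1 (2.41), whereas KRT7, another simple-epithelial keratin, read 32.1 and 31.7 (0.07). Of 44 keratins on the array 34 did not reach the median on either array. Among the other 10, 5 were at least 2-fold higher and 0 lower, beside 5.5% and 3.73% of all genes there, and 2 of the 5 reached the median on the HA-G9a array alone. KRT15 at 3.36 and 23.3 was among the 5, and KRT4 gave a bound only.

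Small calcium-binding S100 proteins read higher among the bright members. S100A10, the annexin A2 partner, read 1074 in vector cells and 2102 in HA-G9a cells, a ratio of 1.06. S100A6 read 178 and 385 (1.20), S100A11 87.5 and 246.5 (1.58), and S100A4, a protein known from metastasis work, 77.4 and 108 (0.57). All 4 bright S100 genes were therefore above 0, 3 of them past 2-fold, beside 1.58% of all bright genes. In the wider set 6 of 11 were higher and 0 lower, beside 5.5% and 3.73% of all genes there, S100A13 being the lowest at 52.0 and 26.6 (-0.88). Of the 6 higher genes 1 had reached the median on the HA-G9a array alone. Under scaling to one array median, the S100 proteins past the median counted 4 higher and 1 lower. Annexins, with which several S100 proteins pair, differed little, ANXA2 reading 3311 and 3271 (0.07) and ANXA1 2866 and 2696 (0.00). Of 8 annexins past the median only the dim ANXA10 passed 2-fold, upward, beside 5.5% of all genes there. ANXA10 had reached the median on the HA-G9a array alone.

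Among the bright caveolar genes CAV1 alone passed 2-fold. CAV1, the main structural protein of caveolae, read 836 and 1820, a ratio of 1.21. Its partners CAV2 at 381 and 608 (0.76), CAVIN1 at 311 and 508 (0.79) and EHD2 at 71.9 and 123 (0.87) lay below the 2-fold line. The flotillins of other lipid rafts did not follow, FLOT2 reading 236 and 131 (-0.77) and FLOT1 1097 and 950 (-0.12). Of the 7 bright genes of the caveolae and lipid raft list 4 thus lay above 0 and 1 was past 2-fold, beside 1.58% of all bright genes. Actin-associated genes showed 17 of 20 bright members above 0, with a median of 0.27 beside -0.01 over all bright genes. LIMA1, an actin-bundling protein, was the only 1 of the 20 past 2-fold at 198 and 513 (1.46), beside 1.58% of all bright genes. MYO10, a motor of filopodial tips, read 19 and 84.6 (2.24), and PHLDB2, which anchors microtubules at the cell cortex, 21.4 and 112 (2.47).

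**Figure D3:**
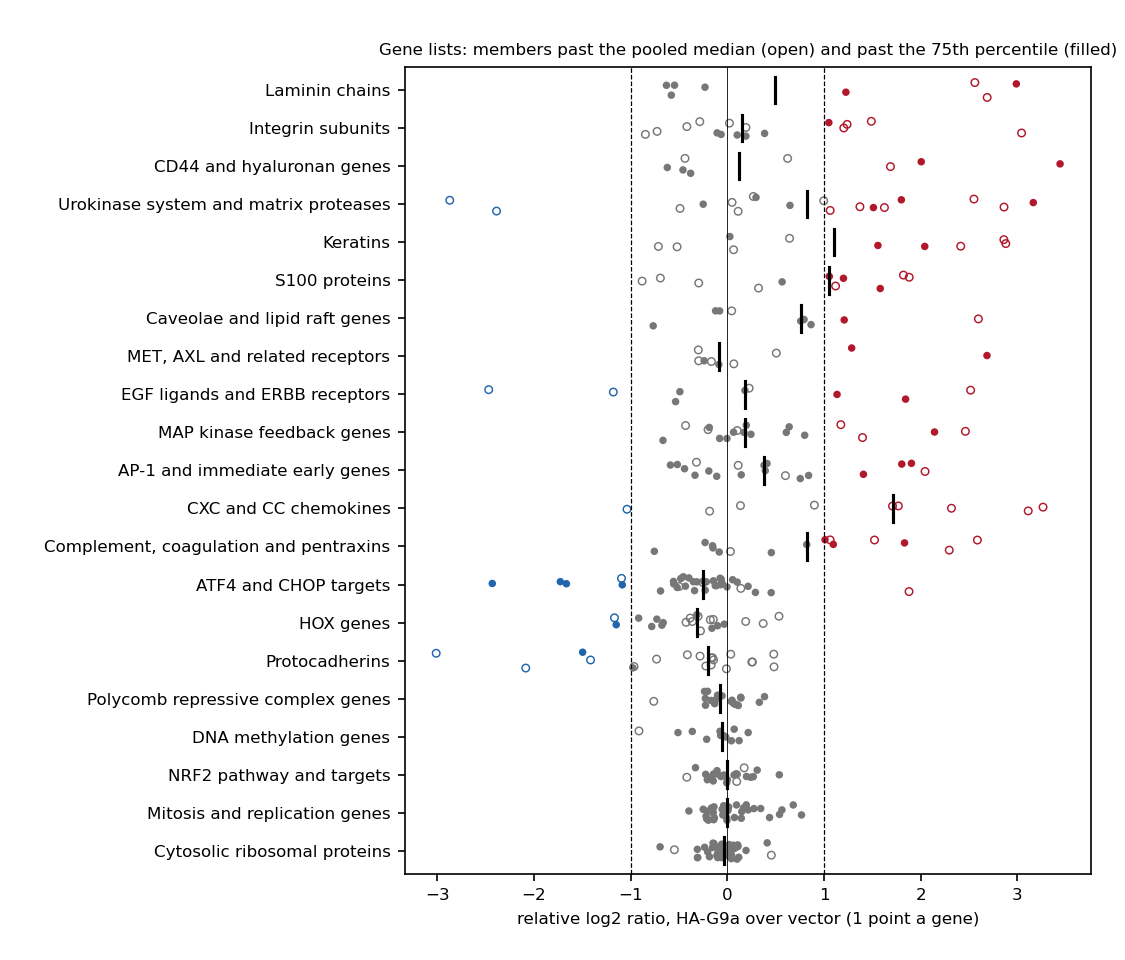
Relative log2 ratio of HA-G9a over vector for the members of 21 gene lists, 1 point a gene, open past the pooled median and filled past the 75th percentile. Red and blue mark genes past 2-fold upward and downward, and the vertical bar is the list's median over the points shown. Keratins and S100 proteins have medians of 1.10 and 1.06, and the mitosis and ribosomal lists lie close to 0.

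Receptors of growth factors that act through tyrosine kinases differed one by one. MET, the hepatocyte growth factor receptor, read 146 in vector cells and 883 in HA-G9a cells, a ratio of 2.69, and all 4 probe sets were above 0, from 1.31 to 2.69. AXL, a receptor of GAS6, read 66.4 and 153 (1.29). Their ligands did not read higher, HGF at 13.8 and 10.6 (-0.30) and GAS6 at 83.9 and 64.2 (-0.30). In the ERBB family EGFR read 73.2 and 151 (1.14), the highest ratio of its 5 probe sets past the median, which ran down to 0.06. ERBB2 read 245.5 and 165 (-0.49), and ERBB3 50.3 and 8.56 (-2.47). The ligand gene NRG1 read 68.9 and 233 (1.84), with 4 of its 5 probe sets above 0, and TGFA read 5.08 and 27.4 (2.52) while HBEGF read 326 and 212 (-0.53). Of 9 EGF-family ligands and receptors past the median 3 were higher and 2 lower, beside 5.5% and 3.73% of all genes there. The HA-G9a array alone brought 1 of the 3 past the median, and the vector array alone 1 of the 2.

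Guidance and angiogenic genes included NRP1, a co-receptor of VEGF and semaphorins, at 21.5 and 94.8 (2.23), and NRP2 at 5.58 and 26.0 (2.31). PDGFC, a platelet-derived growth factor, read 151 and 393 (1.47). Of the 40 FGF, PDGF and VEGF ligands and receptors 19 were past the median, and 5 of these were at least 2-fold higher and 0 lower, beside 5.5% and 3.73% of all genes there. The HA-G9a array alone brought 3 of the 5 past the median. In the insulin-like growth factor system the binding protein genes IGFBP3 at 5.07 and 69.7 (3.87), IGFBP6 at 69.7 and 216 (1.72) and IGFBP4 at 21.3 and 47.5 (1.24) were higher. The insulin receptor gene INSR read 85.6 and 35.0 (-1.20). Of 18 genes of this system past the median 4 were higher and 2 lower, beside 5.5% and 3.73% of all genes there. Among the 4 higher genes 2 had reached the median on the HA-G9a array alone.

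TGF-beta pathway genes past 2-fold were all higher and all measured past the median on both arrays. The ligand TGFB2 read 34.5 in vector cells and 85.6 in HA-G9a cells (1.40), the receptor TGFBR2 34.2 and 84.9 (1.40) and the signal transducer SMAD3 35.0 and 78.1 (1.25). LTBP1, which stores the latent ligand, read 146 and 71.1 (-0.95), just short of 2-fold. Of 19 genes past the median 5 were higher and 0 lower, beside 5.5% and 3.73% of all genes there, and the bright genes had a median of -0.03.

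Notch genes were mixed. The ligand JAG1 read 56.2 and 209, a ratio of 1.98, while the ligand JAG2 read 339 and 209 (-0.61). Among targets HES1 read 55.8 and 110 (1.06), and HEY1 read 270 and 82.1 (-1.63), with its other probe set at -1.71. Of 24 genes past the median 3 were higher and 2 lower, beside 5.5% and 3.73% of all genes there. The HA-G9a array alone brought 1 of the 3 past the median, and the vector array alone 1 of the 2. Secreted Wnt antagonist DKK1 read 45.8 and 187 (2.12), and DACT1, an intracellular Wnt modulator, 3.42 and 40.2 (3.64). Another antagonist, SFRP4, read 83.2 and 36.2 (-1.11). Of 32 Wnt ligands, antagonists and feedback genes past the median 3 were higher and 3 lower, beside the same 5.5% and 3.73%. The HA-G9a array alone brought 2 of the 3 higher genes past the median, and the vector array alone 1 of the 3 lower.

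Immediate early genes and feedback genes of the MAP kinase pathway read higher in part. FOSL1, a FOS-family subunit of AP-1, read 60.8 in vector cells and 214 in HA-G9a cells (1.90). KLF4 read 47.2 and 155 (1.80), and IER3, an early response gene, 191 and 478 (1.41). The AP-1 subunit JUND went the other way at 1351 and 889 (-0.52). PHLDA1 read 136 and 564 (2.14), and the MAP kinase phosphatase genes DUSP4 and DUSP5 read 4.39 and 22.8 (2.46) and 30.9 and 76.6 (1.40). DUSP16 read 162 and 96.5 (-0.66). Past the median, AP-1 and immediate early genes had 4 of 19 higher and 0 lower and MAP kinase feedback genes 4 of 18 and 0, beside 5.5% and 3.73% of all genes there. The HA-G9a array alone brought 1 and 2 of these past the median. The bright medians were 0.38 and 0.18.

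Chemokine genes were all below the bright level, and each of the 5 that were higher had reached the median on the HA-G9a array alone. CCL2, a monocyte attractant, read 4.64 in vector cells and 42.1 in HA-G9a cells (3.27), and CXCL8, which encodes interleukin-8, read 4.46 and 36.4 (3.11). CXCL16 read 38.3 and 17.6 (-1.04). Of 35 chemokine genes 26 gave no usable ratio, and of the 9 past the median 5 were higher and 1 lower, beside 5.5% and 3.73% of all genes there. The AP-1 letters TGANTCA, with N any base, were sought in any RefSeq windows of CXCL8, PLAU, CD44, MET, LAMB3 and FOSL1. These genes were chosen after their values were seen. The window of CXCL8 is shown because it alone gave a match, on the plus strand. It spans chr4:73740319-73740618 in GRCh38.p14 on the plus strand, from 250 bases before the gene's start to 50 after. The capitals mark the match, which starts 137 bases before the gene's start.
CXCL8: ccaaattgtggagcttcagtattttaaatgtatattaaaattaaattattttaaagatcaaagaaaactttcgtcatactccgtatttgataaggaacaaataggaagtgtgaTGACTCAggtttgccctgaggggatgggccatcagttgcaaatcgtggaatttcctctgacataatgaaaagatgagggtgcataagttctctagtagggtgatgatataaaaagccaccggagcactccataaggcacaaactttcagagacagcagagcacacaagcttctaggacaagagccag

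Searched on both strands, TGANTCA stood in 7.76% of all 27305 RefSeq windows of this length. Among genes with a window it stood in 4 of 93 that were at least 2-fold higher and bright (4.3%), in 4 of 53 that were lower (7.55%), and in 3.67% of all 6571 bright genes. None of the 12 named higher genes with a window held it, and of the 13 named lower genes C4orf54, POSTN and DDIT3 did. A match of letters describes the window and is not a binding site.

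Complement and coagulation genes past 2-fold were higher. TFPI2, a Kunitz-type inhibitor of matrix and coagulation proteases, read 71.4 and 240 (1.83). F2RL2, a thrombin receptor of the protease-activated family, read 451 and 909 (1.10), and CLU, the chaperone clusterin, 184 and 350 (1.01). Of 15 genes past the median in the list of complement, coagulation and pentraxins 7 were higher and 0 lower, beside 5.5% and 3.73% of all genes there. The HA-G9a array alone brought 3 of the 7 past the median, and scaling to one array median left 4 higher. The bright median was 0.19. Zinc handling genes held 2 bright members past 2-fold. SLC30A1, which exports zinc from the cell, read 106 and 419 (2.07), and SLC39A8, which imports zinc and manganese, 193 and 558 (1.62). Metallothioneins, whose probe sets can cross-hybridise, stayed under 2-fold where bright, with MT2A at 359 and 509 (0.59) and MT1X at 180 and 303 (0.84).

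Lung and endoderm transcription factors past 2-fold were higher. SOX9, a factor of distal lung progenitors, read 30.8 in vector cells and 190.5 in HA-G9a cells (2.71), with its other probe set at 1.75. GATA6 read 14.8 and 66.6 (2.25), and NKX2-1, the lineage factor of lung epithelium, 31.2 and 60.2 (1.03). CEBPA went the other way at 47.3 and 26.0 (-0.78). Of 16 in the list past the median 4 were higher and 0 lower, beside 5.5% and 3.73% of all genes there. The HA-G9a array alone brought 1 of the 4 past the median. Of factors linked to epithelial-mesenchymal transition, SNAI2 read 6.93 and 35.7 (2.45), TBX2 73.2 and 20.9 (-1.72), and TWIST1 329 and 287 (-0.11). EPCAM, an epithelial adhesion gene reported as repressed by G9a, read 24.6 and 12.6 (-0.88), under 2-fold at a dim level. Of 10 genes reported as repressed by G9a, all past the median, 6 lay above 0 and 4 below, with a median of 0.05. At least 2-fold higher was 1 of the 10, and lower 0, beside 5.5% and 3.73% of all genes there. That gene had reached the median on the HA-G9a array alone. CDH1, the gene of E-cadherin, read 14.9 on both arrays.

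Other genes among the 15 highest came from separate families. UCA1, a long noncoding RNA, read 24.0 in vector cells and 146 in HA-G9a cells (2.70). TMEM158, a membrane protein gene induced by RAS, read 46.8 and 222 (2.33), and the kinase gene SGK1 24.7 and 111 (2.25). GPRC5A, an orphan receptor of lung epithelium, read 25.8 and 115 (2.24). ABCA1, the cholesterol exporter, read 45.5 and 201 (2.23), and BACH2, a transcriptional repressor best known from lymphocytes, 20.9 and 92.0 (2.23). Hypoxia factor EPAS1 read 66.5 and 242 (1.95) and NDRG1 31.0 and 99.7 (1.77), while the hypoxia-induced ADM read 877 and 511 (-0.69).

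A run of lower genes lay among targets of ATF4 and CHOP, transcription factors of the integrated stress response. CHAC1, a glutathione-degrading enzyme, read 220 in vector cells and 38.4 in HA-G9a cells (-2.43). SESN2, an inhibitor of mTORC1 signalling, read 392 and 112 (-1.73), with its other probe set at -1.77. DDIT3, which encodes CHOP, read 300.0 and 89.2 (-1.66), ATF3 215 and 95.6 (-1.09), and STC2 47.9 and 21.1 (-1.09). ATF4 itself read 3673 and 2352 (-0.56), CEBPB 1657 and 1063 (-0.55), and HERPUD1, of endoplasmic reticulum protein degradation, 1109 and 647 (-0.69). Among the 32 bright members 27 lay below 0 and 4 were at least 2-fold lower, beside 0.827% of all bright genes, with a median of -0.24 beside -0.01 over all bright genes. Of the 4 lower genes 1 was bright on the vector array alone. Scaled by the hybridization controls, the ATF4 and CHOP targets had a median of -0.01 and 3 past 2-fold, since that scaling raises every gene. Aminoacyl-tRNA synthetases of the list were 9 of 10 below 0 but within -0.31 to 0.45, and the 5 amino acid transporters ran from -0.25 to 0.22. NUPR1, a stress-induced chromatin protein, was the member at least 2-fold higher, at 5.33 and 18.5 (1.88).

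The CHAC1 window is shown because it was the only one of 13 named lower genes with the C/EBP-ATF letters TGATGNAA, found in 3.67% of all windows and here on the minus strand. It spans chr15:40953221-40953520 in GRCh38.p14 on the plus strand. Capitals mark the match, which starts 209 bases before the gene's start and is printed as it reads on the plus strand.
CHAC1: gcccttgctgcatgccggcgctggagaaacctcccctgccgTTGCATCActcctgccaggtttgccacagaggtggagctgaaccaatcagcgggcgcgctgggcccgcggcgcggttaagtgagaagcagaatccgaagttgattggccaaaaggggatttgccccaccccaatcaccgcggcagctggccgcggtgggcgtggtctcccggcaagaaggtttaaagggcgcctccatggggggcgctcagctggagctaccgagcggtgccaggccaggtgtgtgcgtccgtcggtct

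Enzymes of serine and glycine metabolism, several of them known ATF4 targets, included GLDC, which cleaves glycine, at 239.5 and 105.0 (-1.10). PSAT1 read 1461 and 891 (-0.63), MTHFD2 2676 and 1718 (-0.55) and PHGDH 724 and 539.5 (-0.34). Here 1 of 12 bright genes was at least 2-fold lower, beside 0.827% of all bright genes, and 7 lay below 0. Chaperones of the unfolded protein response counted 0 of 18 bright genes past 2-fold, with a median of 0.07. Beside 1.58% of all bright genes higher and 0.827% lower, a count of 0 in a list of this size is near the overall share.

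**Figure D4:**
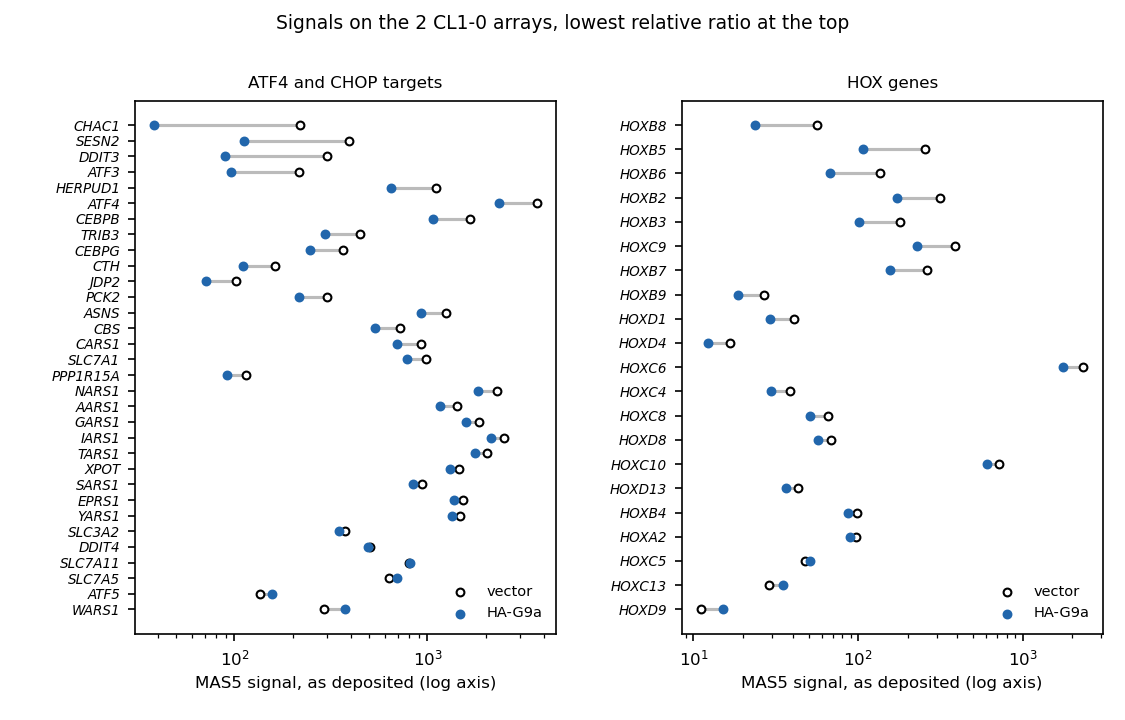
MAS5 signals as deposited (log axis) with the vector (open) and HA-G9a (filled), 1 array a point, for the 32 bright ATF4 and CHOP targets and the 21 HOX genes past the median. Genes are in order of relative ratio with the lowest at the top. CHAC1 at -2.43 and SESN2 at -1.73 stand at the top of the first panel, HOXB8 at -1.17 and HOXB5 at -1.15 at the top of the second.

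HOX genes, the homeobox genes that set position along the body axis, read lower mainly in the HOXB cluster. All 8 HOXB genes past the median lay below 0, with a median of -0.76 and a range of -1.17 to -0.10. HOXB5 read 254 in vector cells and 108 in HA-G9a cells (-1.15), while its other probe set gave -0.69. HOXB8 read 56.3 and 23.6 (-1.17), and HOXB6 135 and 67.3 (-0.92), with -0.31 from its other probe set. HOXB2 at 313 and 171 (-0.78), HOXB3 at 179 and 102 (-0.73) and HOXB7 at 263 and 157 (-0.66) were lower by less than 2-fold. The other probe set of HOXB3 gave -1.29. A dimmer probe set of HOXB7 went the other way at 46.4 and 67.7 (0.63). HOXB4 read 98.3 and 86.4 (-0.10). In the HOXC cluster 5 of 7 genes lay below 0 with a median of -0.28, HOXC9 reading 388 and 229 (-0.68) and HOXC6 2330 and 1764 (-0.31). Of 21 HOX genes past the median 0 were higher and 2 lower past 2-fold, beside 5.5% and 3.73% of all genes there. Scaled by the hybridization controls 0 were lower past 2-fold, and the bright HOX genes had a median of -0.44. Genes of a HOX cluster are neighbours, so their values are not separate observations of the comparison.

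Clustered protocadherins, which give neurons their surface identity, and other protocadherins had 4 of 20 genes past the median at least 2-fold lower and 0 higher, beside 3.73% and 5.5% of all genes there. The vector array alone brought 3 of the 4 past the median. PCDH9 read 113 and 37.8 (-1.50) and PCDHB5 390 and 187 (-0.98). PCDHB18P, a pseudogene of the cluster, read 28.7 with the vector and below the floor with HA-G9a. Of 47 on the array, 27 did not reach the median, and PCDHB probe sets can share sequence, so single values are uncertain.

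Other lowest genes had varied roles. C4orf54 read 160.5 in vector cells and 0.68 in HA-G9a cells, under the floor, so its ratio of -5.49 is a bound, and it rests on 1 probe set. TMT1A, a thiol methyltransferase, read 101 and 11.9 (-3.00), and its other probe set gave -0.71. VGLL3, a cofactor of TEAD transcription factors, read 150 and 20.7 (-2.77), with -1.78 from its other probe set. NTS, the neuropeptide neurotensin, read 565 and 132 (-2.01). CYP26B1, which degrades retinoic acid, read 369 and 119 (-1.54), while its relative CYP26A1 read 128.5 and 221 (0.87). UBALD2 read 117 and 32.8 (-1.75), the mitochondrial carrier gene SLC25A21 141 and 42.2 (-1.65), and the protease gene PRSS16 111 and 39.4 (-1.41).

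Several housekeeping and chromatin families held 0 bright genes past 2-fold, but only 1.58% of all bright genes were higher and 0.827% lower, so a count of 0 in lists of this size is near the overall share and is not a result about them. Mitosis and replication genes were 0 of 38 with a median of -0.01, cytosolic ribosomal proteins 0 of 55 at -0.03, respiratory chain genes 0 of 77 at -0.04 and proteasome subunits 0 of 32 at 0.09. Polycomb genes were 0 of 21 at -0.05, DNA methylation genes 0 of 11 at -0.04, and NRF2 pathway genes 0 of 20 at -0.02. H3K9 demethylases and HP1 readers were also 0 of 12 past 2-fold, yet 10 of the 12 lay below 0, with a median of -0.21 that became 0.02 when scaled by the hybridization controls. PHF2 was the lowest of these at 146 and 72.1 (-0.94), followed by KDM4A at 171 and 94.4 (-0.77).

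The labels name the type II alveolar cell as the cellular basis of the tumour, and its markers SFTPC and SFTPB were below the bright level on both CL1-0 arrays. SFTPC read 21.3 in vector cells and 6.72 in HA-G9a cells (-1.58), and SFTPB 36.5 and 22.9 (-0.59). The list did not share one direction: of 8 type II markers past the median, 4 lay above 0 and 4 below. At least 2-fold higher were 2 of the 8 and lower 1, beside 5.5% and 3.73% of all genes there. The HA-G9a array alone brought 1 of the 2 past the median, and the vector array alone the lower gene. Over the 13 type II markers on the array, 7 reached the median on each array, and their signals summed to 671 in vector cells and 779 in HA-G9a cells, of which LPCAT1 gave 360 and 426. Type I markers summed to 1306 and 2112, of which CAV1 gave 836 and 1820. Fibroblast markers summed to 457 and 183, with 3 of 9 past the median on each array, and COL3A1 gave 330 and 59.7 of the sums. Leukocyte markers summed to 95.4 and 53.03 over 8 genes, endothelial to 65.9 and 60.7 over 9, basal airway to 10.5 and 32.9 over 5, airway secretory and ciliated to 36.5 and 45.9 over 10, and neuroendocrine to 165 and 215.5 over 8. The part of other cell types in COL3A1 and in the keratins was not tested. In such bulk RNA, more RNA per cell and more cells of a kind cannot be told apart.

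Probe sets of a gene did not always give one size. Besides the genes above, another probe set past the median fell short of 2-fold for CDYL2 (0.69), VCAN (0.82), LAMB1 (0.90), SMAD3 (0.87), JAG1 (0.64), CLU (0.62), LIMA1 (0.89), UBALD2 (-0.56), INSR (-0.21), TBX2 (-0.53) and STC2 (-0.15). The sign itself differed for FN1, with probe sets from -0.40 to 1.71, for NRP2, from -0.21 to 2.42, and for MMP15, whose other probe set read 1.78.

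On the arrays, the 3' over 5' signal ratio, a sign of RNA integrity, was 1.55 (vector) and 1.25 (HA-G9a) for ACTB, and 1.01 and 1.02 for GAPDH. Bacterial hybridization controls, 18 probe sets, had a median log2 ratio as deposited of -0.32 (SD 0.13 between probe sets), against a centre of -0.09 for bright probe sets. Their part in the ratios was not tested beyond the rescaling given in the closing section.

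Several of the genes higher with HA-G9a were bright in CL1-5. The control shRNA array of CL1-5 read 1581 for CD44, 2258 for PLAU, 1264 for LAMB3, 957.5 for SOX9, 525 for MET and 1269 for MYO10. It read 3.75 for COL3A1, 2.94 for NTS, 3.42 for POSTN and 37.5 for CHAC1, below the HA-G9a signals. UCA1 at 29.9, BACH2 at 8.0 and P3H2 at 0.36 differed from the first group, and HEY1 at 989 from the second. Any contrast of that array with the vector array uses the same vector array as the ratios above, so only the values are given. As a further description, 16 genes with at least 500 on the CL1-5 control array and less than 12.5 with the vector were listed after their values had been seen. Their signals with HA-G9a ran from 0.76 to 44.6 with a median of 14.4, against a vector median of 5.03, and the choice of genes dim with the vector favours higher values on the other array. C19orf33 read 1.68 and 44.6, NT5E 9.13 and 41.4, SULF2 10.7 and 10.9, and PAEP 2.53 and 0.76. Carry-over of CL1-5 RNA or cells was not tested.

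The knockdown of G9a in CL1-5, which shares no array with CL1-0, gives the opposite perturbation in a different line. In both lines 7317 genes were bright; after the knockdown 249 of them (3.4%) passed 2-fold upward and 259 (3.54%) downward. Among 103 of these genes higher with HA-G9a, 30 were lower after the knockdown (29.1% of the 103 and 11.6% of the 259) and 13 were higher (12.6%, and 5.22% of the 249). The 30 include EHMT2 itself, whose RNA both perturbations were designed to change. The median knockdown ratio of the 103 was -0.06. Among 31 genes lower with HA-G9a, 5 were higher after the knockdown (16.1%, and 2.01% of the 249) and 2 lower (6.45%, and 0.772% of the 259).

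By gene, CD44 read 1581 with the control shRNA and 653 after the knockdown, a relative ratio of -1.68. SOX9 read 957.5 and 578 (-1.13), TGFBI 601 and 231 (-1.78), TMEM158 721 and 234 (-2.02), SGK1 213 and 60.2 (-2.22) and MYO10 1269 and 375 (-2.16). These genes were thus lower after the knockdown in CL1-5 and higher with HA-G9a in CL1-0. They were picked from the 30 that did so, while 13 of the 103 were higher in both. The signals of SOX9 as deposited differed by less than 2-fold, and its relative ratio includes the CL1-5 centre of 0.40. PLAU at 2258 and 2725 (-0.13), LAMB3 at 1264 and 1723 (0.05) and MET at 525 and 483 (-0.52) were not past 2-fold after the knockdown. UCA1 went the same way in both lines, reading 29.9 and 442.5 after the knockdown (3.49). On the lower side, SLC25A21 read 12.4 and 84.3 (2.37). The ATF4 targets DDIT3 at 76.4 and 77.8 (-0.37) and SESN2 at 68.8 and 69.7 (-0.38) had nearly equal signals as deposited. CHAC1, also an ATF4 target, read 37.5 and 15.1 (-1.71), at a dim level. ATF3 was lower past 2-fold after the knockdown as well.

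**Figure D5:**
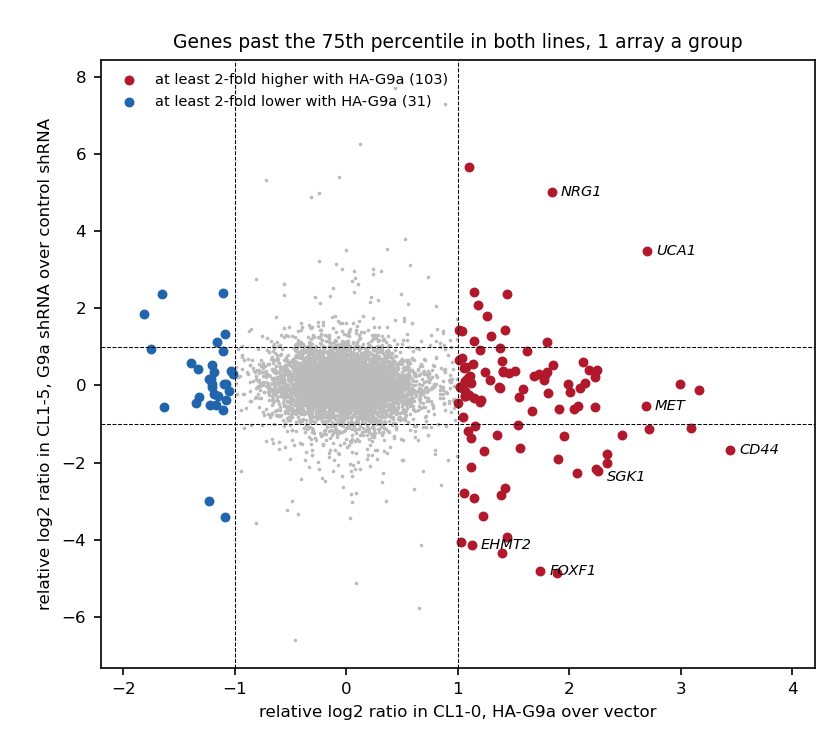
Relative log2 ratio after the G9a knockdown in CL1-5 (vertical) against that with HA-G9a in CL1-0 (horizontal) for the 7317 genes bright in both lines, 1 array a group. Dashed lines mark 2-fold. The 103 genes higher with HA-G9a are in red, of which 30 lie below the lower dashed line and 13 above the upper one, and the 31 lower genes are in blue.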

How the data were processed

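RNA of 4 populations was measured on 1 Affymetrix expression array each, with probe sets as the unit of measurement. The deposited values are intensities on a linear scale, made by the authors with MAS5 per the submitters' processing notes. The sources used here give neither its settings nor detection calls. The platform annotation paired 41097 of 54675 probe sets with 1 symbol and 1801 with more, and it did not list 11777. Symbols were updated by Entrez identifier against RefSeq (GRCh38.p14), which matched 41043. Left out were 59 probe sets of genes annotated to the Y chromosome or of XIST and TSIX, and other X-linked genes were kept. A gene took the single-gene probe set of highest mean over the 4 arrays.

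Intensities were raised to a floor (pooled 25th percentile), log2-transformed and set relative to the median ratio of probe sets whose brighter array passed the pooled 75th percentile (-0.09 for CL1-0 and 0.40 for CL1-5). Called means at least 2-fold. With 1 array per group there was no test and no p-value, and the number of arrays limits the precision.

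Named genes were the 15 highest and 15 lowest bright genes whose other probe sets past the median had the same sign, then EHMT2, EHMT1 and EPCAM, then up to 6 members of each of 83 gene lists and others that the text describes by role. CCNG2, ELFN2, ETS1, MID1, NRG1 and SOCS3 had a probe set of opposite sign and were passed over by the first rule. The comparison, the members and the lists were chosen with earlier results of these data known, so counts over lists are descriptions. Of 8 cell type marker lists, the summed signals are given. Promoter windows came from RefSeq (GRCh38.p14). Computation was done in Python 3.11.15 (NumPy 2.4.6, pandas 2.3.3, matplotlib 3.10.9), and the ratio step was tested on simulated data.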

Additional observations from a re-analysis of the deposited data

Results flagged for a closer look

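Among the genes named in the text, 13 were past the median and past 2-fold in both lines with opposite directions when the array with more G9a was set against the array with less. The 13 came from the named genes alone, and named genes with the same direction were not counted. Over all genes past the median in both lines, 87 passed 2-fold upward with HA-G9a and after the knockdown, and 42 downward. Higher with HA-G9a and lower after the knockdown were 124, and the reverse held for 52. The difference between the lines was not tested because each group is 1 array. Each pair of values gives the relative log2 ratio in CL1-0 (HA-G9a over vector), then in CL1-5 (control over knockdown).

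Higher with more G9a in CL1-0 and lower in CL1-5 were 9 genes. UCA1 had 2.70 and -3.49, a difference of 6.18, and NRG1 1.84 and -5.02, a difference of 6.86. F2RL2 had 1.10 and -5.66, a difference of 6.76, and VCAN 1.69 and -4.40, a difference of 6.09. KRT80 had 2.41 and -3.05, a difference of 5.47, and ANXA10 2.82 and -2.56, a difference of 5.38. TGFA had 2.52 and -2.04, a difference of 4.56, TGFB2 1.40 and -1.37, a difference of 2.77, and CLU 1.01 and -1.43, a difference of 2.44. Below the bright level on both CL1-0 arrays were VCAN, KRT80, ANXA10 and TGFA.

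The other 4 went the opposite way. CHAC1 had -2.43 in CL1-0 and 1.71 in CL1-5, a difference of -4.14, although its CL1-5 signals of 37.5 and 15.1 were dim. PCDHB18P had -3.01 and 1.62, a difference of -4.63, ATF3 -1.09 and 3.33, a difference of -4.41, and MFAP2 -1.23 and 2.98, a difference of -4.21. The CL1-0 value of PCDHB18P is a bound at a dim level, since its HA-G9a signal was below the floor. NRG1 and CLU also had probe sets in CL1-0 that fell short of 2-fold.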

How the results depend on the processing

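The relative ratios of the 30 named genes stayed past 2-fold in their direction under those of the 13 alternatives that gave them a value. Without _s, _x and _a probe sets several genes, among them P3H2, PLAU and COL3A1, had no probe set past the median and so no value. Alternatives that change the filter alone leave the ratio of a gene as it was, so they could not move it. The 30 were chosen as the extremes of these ratios, the smallest absolute value being 1.41. Recentring shifted the median gene by at most 0.23, too little to bring any of them under 2-fold. The counts of 122 higher and 64 lower genes moved more. Scaled by the hybridization controls, which shifted the median gene by 0.23, they were 209 and 23; with the arrays scaled to one median, a shift of -0.16, the lower count was 118 and the higher 85. The share of called genes that were higher ran from 65.6% as reported to 90.1% and 41.9% under these scalings, and was 52.0% as deposited. With the filter at the pooled median the counts were 704 and 477, and with none 1431 and 918. The lower count was 39 with 16 added to each signal, 41 without _s, _x and _a probe sets, and 37 with a filter on the mean of both arrays, which was chosen after seeing the data.

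Genes higher with HA-G9a and lower after the knockdown numbered 30 as reported, 19 as deposited, 17 with the mean filter, 124 past the median and 271 unfiltered. Those higher in both numbered 13, against 8 with one median, 33 by hybridization controls, 8 without _s, _x and _a probe sets, 6 with the mean filter, 87 past the median and 177 unfiltered. Those lower with HA-G9a and higher after the knockdown numbered 5, against 12 as deposited, 8 with one median, 3 by hybridization controls, 3 with 16 added, 3 by the median of probe sets, 2 with the mean filter, 52 and 109. Those lower in both numbered 2, against 5 with one median, 0 by hybridization controls, 1 with 16 added, 0 with the mean filter, 42 and 132. Unfiltered, the medians of the protocadherins (0.0425) and fibroblast markers (0.0867) changed sign. Over all pairs of a gene list and an alternative, the list median stayed within the probe set spread in 1046 and moved past it in 65. The cause was not tested. No array could be left out, with 1 per group. No paired analysis was possible because the result comes from no test.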
